A study of Bos taurus with 64 samples.

Results

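Bovine miR-532, miR-188, miR-362 and miR-660 are microRNAs (miRNAs) made from hairpins that lie together in the CLCN5 gene on the X chromosome, and their levels were followed here in skeletal muscle of steers. The 4 members described are bta-miR-532, bta-miR-188, bta-miR-362-3p and bta-miR-660, 4 of the 1030 miRNA names counted. They were chosen by their differences between breeds, diets and residual feed intake (RFI) classes in these same libraries, so those differences are given as descriptions without a test. All 4 passed the filter on low counts that kept 318 names. The table also held 4 further miRNAs of the cluster, bta-miR-362-5p, bta-miR-500, bta-miR-502a and bta-miR-502b, which were not chosen on their values and were tested among all 318.

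The study took muscle from steers of a dairy breed, Holstein-Friesian, and a beef breed, Charolais, classed as low-RFI (eating less than predicted for their size and growth) or high-RFI. Intake was recorded in 77 Holstein-Friesian and 90 Charolais steers over 2 phases of 70 days with an interim of 14 days. Zero-grazed, mainly ryegrass herbage was offered in the earlier phase and a barley-based high-concentrate diet with restricted grass silage in the later phase. The 8 groups were Holstein-Friesian and Charolais steers of low and high RFI on the concentrate and on the grass diet, with 8 libraries in each, from 59 animals of which 5 gave a library on each diet. The labels give neither the muscle nor the age, and diet cannot be told apart from phase order and age.

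A miRNA hairpin is cut from a longer transcript, and either arm of it, named 5p or 3p, can be loaded into the silencing complex that represses messenger RNAs with matching sites. Several hairpins in an intron can come from the transcript of the host gene or from promoters of their own, and their mature levels then also depend on processing and decay. CLCN5 encodes a chloride/proton exchanger of endosomes that is best known from the kidney. In mouse bone marrow, miR-188 is known to shift stromal cells from bone towards fat formation, and in human tumour cells miR-532 is known to repress the transcription factor RUNX3. In the RefSeq cattle annotation (assembly ARS-UCD2.0) 8 miRNA genes lie inside CLCN5, in the order MIR532, MIR188, MIR502A-2, MIR502B, MIR362, MIR500, MIR660, MIR502A-1. Mature sequences were not used here.

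The 64 libraries held between 4795936 and 12245099 counts, with a median of 8143016. Levels are given in CPM, counts scaled to a common library total with TMM factors, and they are not divided by length. miR-10b alone took between 19.3% and 74.5% of a library's counts, and the factors ran from 0.511 to 2.43. High-RFI Holstein-Friesian replicate 1 on grass stood apart, with the factor of 2.43 against 0.511 to 1.88 in the other 63 libraries. It had counts for 597 names, against 424 to 570 in the others, and what changed without it is given after the RFI results. All 6 tested skeletal-muscle miRNAs (miR-1, miR-133a, miR-133b, miR-206, miR-208b and miR-499) were present and made up 8.47% of the scaled counts on average. Markers of red blood cells (3 of 3), leukocytes (7 of 7), endothelium (2 of 2) and smooth muscle or fibroblasts (5 of 5) were present too, and none of these was at 0 throughout. In whole muscle samples, fewer cells of a type and less RNA per cell cannot be told apart.

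All 8 miRNAs of the cluster had counts in all 64 libraries, at very different levels. miR-660 averaged 1082 ± 428 CPM (SD, n = 64), ranked 34 among the 318 tested and held 54.5% of the cluster's CPM. miR-502a followed at 331 ± 127 CPM, miR-502b at 295 ± 103 CPM and miR-532 at 200.2 ± 38.2 CPM. The order of miR-502a and miR-502b differed between libraries. miR-500 averaged 33.04 ± 9.32 CPM and miR-362-5p 30.5 ± 6.80 CPM, with ranges that overlapped. Their difference within a library was not tested. miR-188 averaged 8.78 ± 3.37 CPM, at rank 179, and miR-362-3p 5.53 ± 1.57 CPM, at rank 198. Summed over the cluster, a library held 1985 ± 586 CPM, with a range from 1164 to 4183 CPM.

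Depth limited the 2 rarest members. miR-362-3p had between 12 and 196 counts per library (median 44.5) and miR-188 between 27 and 353 (median 65.5). For miR-362-3p, counting error alone gives an SD of 0.23 on the log2 scale, against an observed 0.33 within groups. For miR-188 the 2 values were 0.19 and 0.42, for miR-532 they were 0.04 and 0.21, and for miR-660 they were 0.02 and 0.45. The lowest count of miR-362-3p, 12 of 7773785, corresponds to 1.54 CPM on the library total, with a 95% Wilson interval from 0.883 to 2.70 CPM that covers counting error only. miR-660 was thus the member with the largest spread between animals and the smallest counting error.

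**Figure D1:**
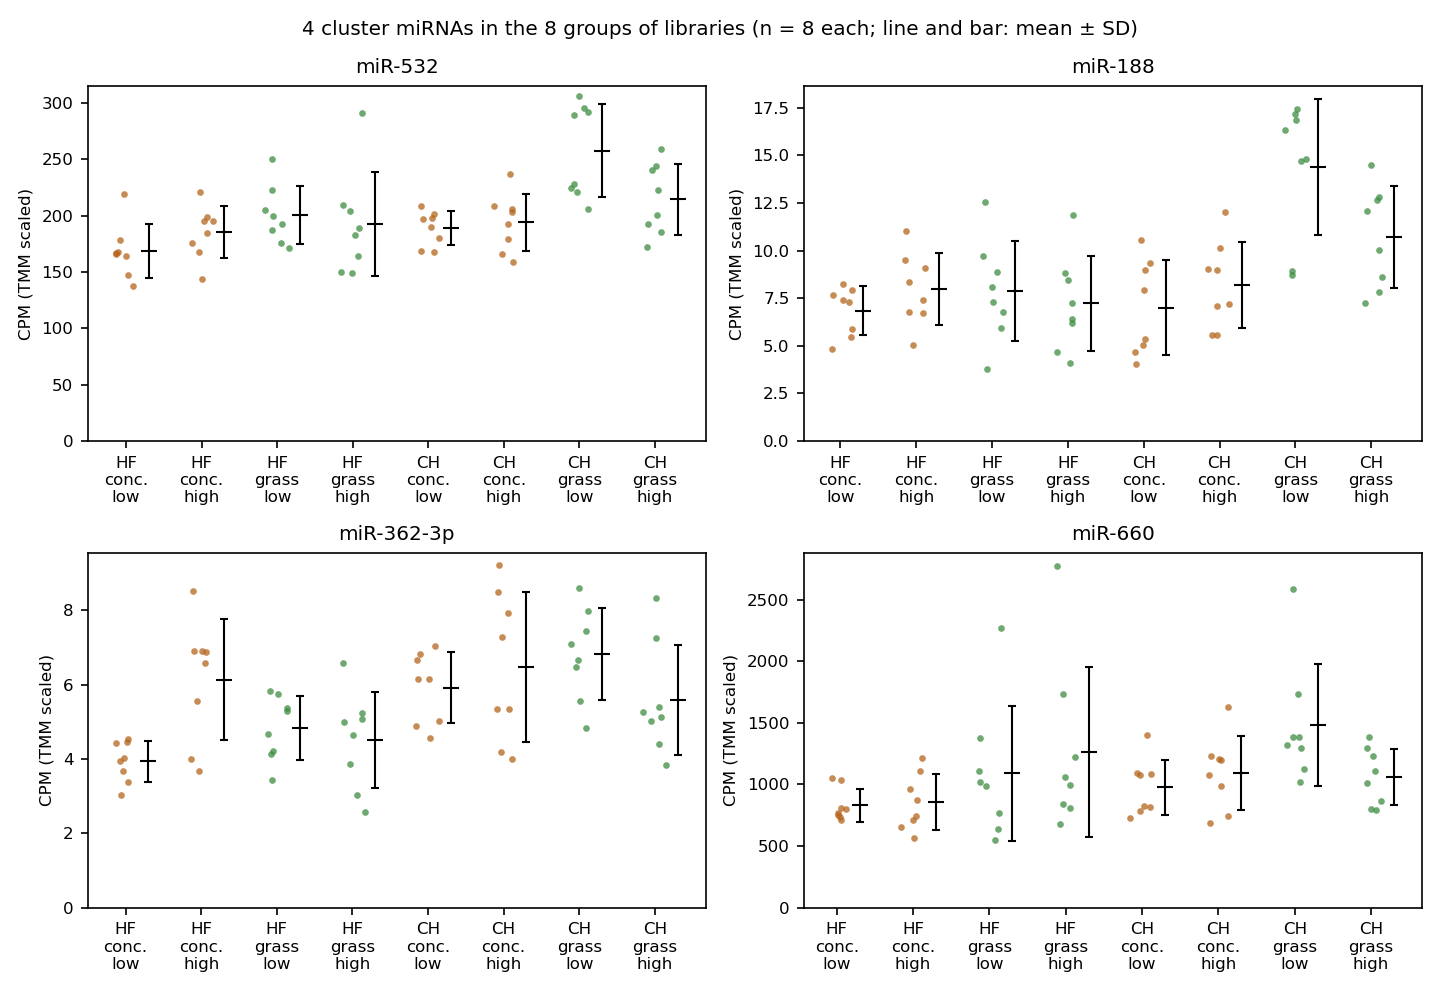
CPM (vertical axes, TMM scaled) of miR-532, miR-188, miR-362-3p and miR-660 in each library, for the 8 groups of Holstein-Friesian (HF) and Charolais (CH) steers on concentrate (brown) and grass (green) with low or high RFI; the line and bar give the mean ± SD of 8 libraries. miR-188 is highest in low-RFI Charolais on grass, at 14.4 ± 3.57 CPM.

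The question of the diet comparison was how the miRNAs differed between the concentrate and the grass phase. miR-188 averaged 7.51 ± 2.03 CPM on concentrate and 10.05 ± 3.95 CPM on grass (SD, n = 32 each), a log2 difference, concentrate minus grass, of -0.38 ± 0.10 (SE). miR-660, the most abundant member, averaged 939 ± 243 CPM on concentrate and 1224 ± 521 CPM on grass, a difference of -0.38 ± 0.11. miR-532 averaged 184 ± 23.4 CPM on concentrate and 216 ± 43.5 CPM on grass (-0.23 ± 0.06), and 26 of 32 concentrate libraries lay below the grass median. With any 1 library left out its difference ran from -0.22 to -0.17. miR-362-3p averaged 5.61 ± 1.67 CPM on concentrate and 5.44 ± 1.49 CPM on grass, with a difference of 0.04 ± 0.09. The ranges of the diets overlapped for every member. Over all 318 miRNAs the median difference was 0.01, and 34% were called at an adjusted p below 0.05. With library totals in place of TMM factors the median of all moved to -0.24, miR-362-3p to -0.24 and miR-188, miR-660 and miR-532 to -0.67, -0.62 and -0.52.

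None of the 4 other cluster miRNAs was called for diet over both breeds by edgeR's quasi-likelihood test with Benjamini-Hochberg adjustment, although 2 had an unadjusted p below 0.05. miR-500 gave -0.20 ± 0.09 (adjusted p = 0.0616), miR-502a -0.28 ± 0.13 (adjusted p = 0.0905), miR-362-5p -0.12 ± 0.08 (adjusted p = 0.223) and miR-502b 0.17 ± 0.12 (adjusted p = 0.237). DESeq2 called none of them either. With library totals 3 of the 4 were called lower on concentrate, namely miR-500, miR-502a and miR-362-5p. There 118 of all 318 miRNAs were called lower, and the median of all was -0.24. Relative to that median the 3 differences were -0.23, -0.28 and -0.12 in the same order.

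For miR-188 the diet difference is described within each breed, without a test of whether the breeds differed. In Holstein-Friesian it averaged 7.42 ± 1.67 CPM on concentrate and 7.55 ± 2.49 CPM on grass (n = 16 each), a difference of -0.04 ± 0.15. In Charolais it averaged 7.60 ± 2.39 CPM on concentrate (lowest 4.03, median 7.58, highest 12.0) and 12.5 ± 3.58 CPM on grass (lowest 7.24, median 12.7, highest 17.4), a difference of -0.72 ± 0.15. All 16 Charolais concentrate libraries lay below the Charolais grass median, and 8 of them below the lowest grass library. Charolais on grass was thus the highest of the 4 combinations of breed and diet, while the other 3 averages of miR-188 lay between 7.42 and 7.60 CPM and did not differ beyond their spread. The interaction, the Holstein-Friesian diet difference minus the Charolais one, was 0.68 ± 0.21. It is a description only, because miR-188 was chosen on breed and diet differences in these libraries.

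miR-532 shared that order in part. Charolais on grass averaged 236 ± 42.0 CPM, against 196 ± 36.3 CPM in Holstein-Friesian on grass, 191 ± 20.4 CPM in Charolais on concentrate and 177 ± 24.5 CPM in Holstein-Friesian on concentrate. The last 3 followed each other within 1 SD. Its diet difference was -0.15 ± 0.08 in Holstein-Friesian and -0.30 ± 0.08 in Charolais, with 15 of 16 Charolais concentrate libraries below the grass median. With any 1 library left out the Charolais difference ran from -0.28 to -0.21, each smaller in size than with all libraries. Each of these fits also repeated the low-count filter and the TMM scaling, and why the difference shrank in all of them was not tested. miR-660 averaged 843 ± 181 CPM on concentrate and 1177 ± 608 CPM on grass in Holstein-Friesian (-0.48 ± 0.16), and 1035 ± 264 CPM on concentrate and 1270 ± 431 CPM on grass in Charolais (-0.28 ± 0.16). Its 2 grass averages did not differ beyond their spread. The Charolais value rested partly on low-RFI replicate 3 on grass, which held 2583 CPM, and without it the difference was -0.15.

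The other cluster miRNAs were tested within each breed. In Charolais 2 of 4 were called lower on concentrate, against 11.3% of all miRNAs called lower there and 20.8% called either way. miR-500 averaged 29.4 ± 7.26 CPM on concentrate and 40.6 ± 11.01 CPM on grass, a difference of -0.46 ± 0.12 (edgeR adjusted p = 0.00427), with 14 of 16 concentrate libraries below the grass median. It was called in all 64 fits that left out a library, with differences from -0.456 to -0.365 against -0.458 with every library. miR-362-5p averaged 29.0 ± 5.002 CPM on concentrate and 35.3 ± 8.01 CPM on grass (-0.28 ± 0.11, edgeR adjusted p = 0.0493, 13 of 16 below the median). This second call sat at the threshold. All 64 fits that left out a library, each with the filter and TMM scaling redone, lost the call, with differences from -0.26 to -0.19. Holstein-Friesian libraries do not enter this comparison, yet leaving out high-RFI replicate 1 on concentrate gave -0.23 and lost the call. Of the 64 libraries only 3 gave it when used as the TMM reference, a check added after the data were seen. miR-502a (-0.35 ± 0.19, adjusted p = 0.182) and miR-502b (-0.14 ± 0.16, adjusted p = 0.580) were not called by edgeR in Charolais.

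In Holstein-Friesian 1 of the 4 was called, and in the other direction. miR-502b averaged 325 ± 97.0 CPM on concentrate and 230 ± 99.8 CPM on grass, a difference of 0.49 ± 0.16 (edgeR adjusted p = 0.0197). All but 1 of the 16 concentrate libraries lay above the grass median, and 10.7% of all miRNAs were called higher on concentrate there (24.2% either way). The call was lost with library totals, where the difference was 0.20 (adjusted p = 0.24 by edgeR) and the median of all miRNAs stood at -0.29. miR-362-5p (0.05 ± 0.11), miR-500 (0.05 ± 0.12) and miR-502a (-0.22 ± 0.19) were not called (edgeR adjusted p = 0.781, 0.784 and 0.445).

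In Holstein-Friesian muscle miR-660 had a negative diet difference and miR-502b a positive one. Because miR-660 was chosen on such differences and the call of miR-502b was lost with library totals, this and the ratios that follow are descriptions only. Their log2 ratio, miR-660 over miR-502b within a library, averaged 1.40 ± 0.37 on concentrate and 2.31 ± 0.62 on grass in Holstein-Friesian (SD, n = 16 each). In Charolais it averaged 1.83 ± 0.32 on concentrate and 1.96 ± 0.37 on grass. The log2 ratio of miR-502a over miR-502b averaged -0.14 ± 0.38 on concentrate and 0.57 ± 0.48 on grass in Holstein-Friesian. A ratio within a library does not depend on the scaling factor, and it shows unequal change without telling which miRNA changed.

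**Figure D2:**
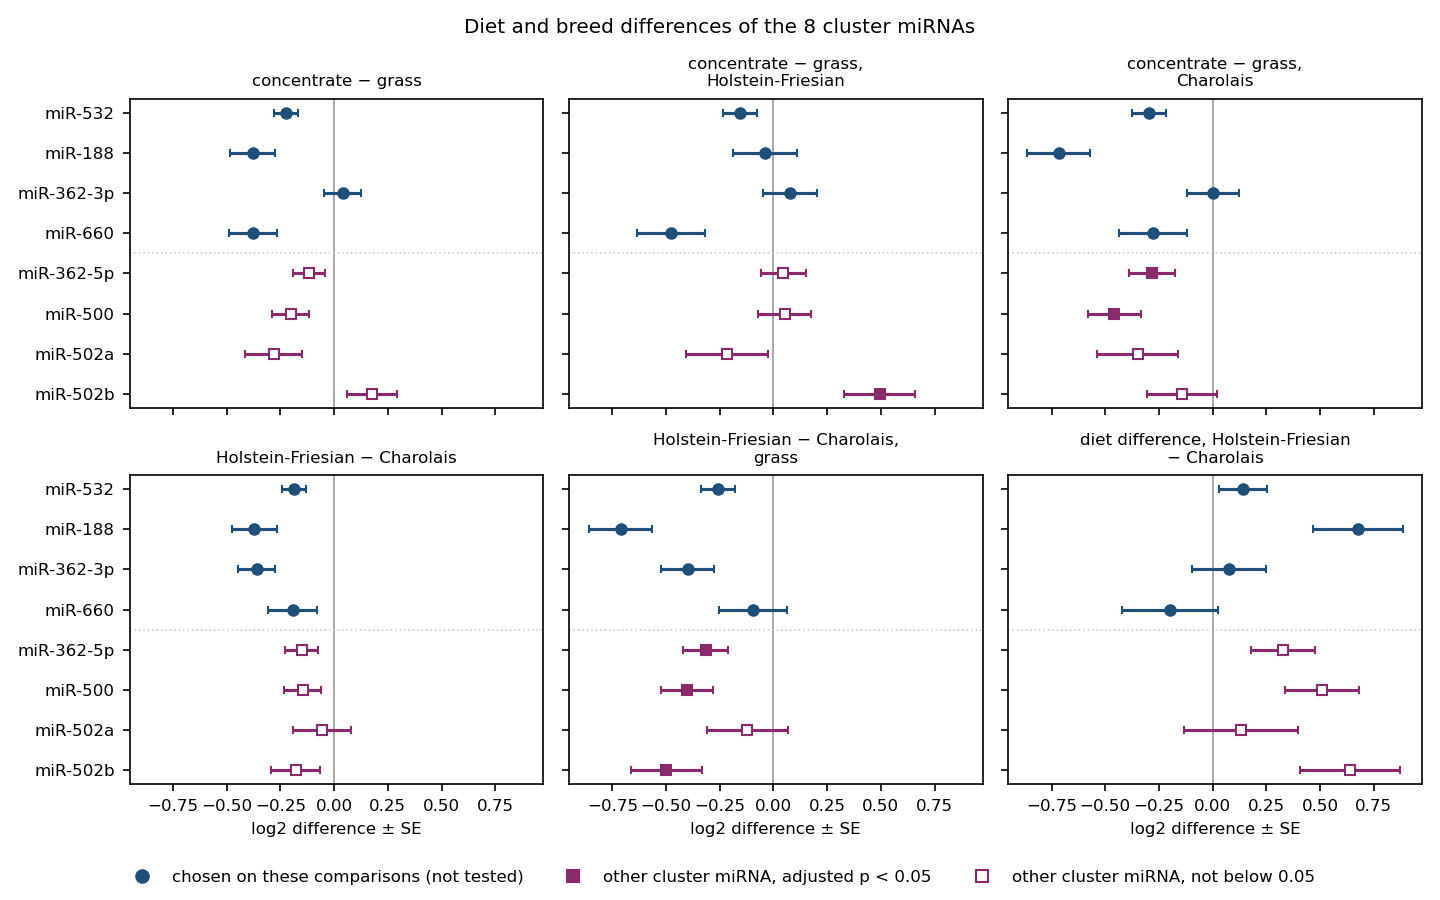
Log2 difference ± SE (horizontal axes) of the 8 cluster miRNAs for diet, overall and within each breed, for breed, overall and on grass, and for the interaction of both. Circles are the 4 members, which were chosen on these comparisons, and filled squares are other cluster miRNAs with an edgeR adjusted p below 0.05. For breed on grass 3 of the 4 squares are filled, all lower in Holstein-Friesian, against 15.4% of all 318 miRNAs called lower there.

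The breed comparison set Holstein-Friesian against Charolais. Over both diets every member had a negative difference, Holstein-Friesian minus Charolais. miR-188 averaged 7.48 ± 2.09 CPM in Holstein-Friesian and 10.07 ± 3.91 CPM in Charolais (-0.37 ± 0.10, n = 32 each). miR-362-3p averaged 4.85 ± 1.37 CPM in Holstein-Friesian and 6.20 ± 1.48 CPM in Charolais (-0.36 ± 0.09). For each of these, 26 of 32 Holstein-Friesian libraries lay below the Charolais median. miR-532 averaged 187 ± 32.0 CPM in Holstein-Friesian and 214 ± 39.6 CPM in Charolais (-0.19 ± 0.06), and miR-660 1010 ± 473 CPM in Holstein-Friesian and 1153 ± 371 CPM in Charolais (-0.19 ± 0.11). Of all miRNAs 21.7% were called for breed, with a median difference of -0.02. None of the 4 other cluster miRNAs was called by edgeR, 1 of them with an unadjusted p below 0.05, nor by DESeq2. Their differences were -0.15 for miR-362-5p, -0.15 for miR-500, -0.06 for miR-502a and -0.18 for miR-502b (edgeR adjusted p = 0.141, 0.221, 0.776 and 0.255).

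On grass the difference was larger than over both diets for miR-188, miR-362-3p and miR-532 and smaller for miR-660, without a test between the diets. miR-188 averaged 7.55 ± 2.49 CPM in Holstein-Friesian (lowest 3.77, median 7.29, highest 12.5) and 12.5 ± 3.58 CPM in Charolais, a difference of -0.71 ± 0.15, or a fold of 0.611. All 16 Holstein-Friesian libraries lay below the Charolais median. Only 6 of the 318 tested miRNAs had a lower difference than miR-188 in this comparison, which is part of how it was chosen. miR-362-3p averaged 4.67 ± 1.07 CPM in Holstein-Friesian and 6.21 ± 1.47 CPM in Charolais (-0.40 ± 0.12, 15 of 16 below the median), and miR-532 gave -0.26 ± 0.08 (14 of 16). miR-660 gave -0.09 ± 0.16, which turned to 0.08 with library totals. Without high-RFI Holstein-Friesian replicate 5 on grass, miR-532 gave -0.17, miR-362-3p -0.29, miR-188 -0.60 and miR-660 0.00236.

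Of the 4 other cluster miRNAs, 3 were lower in Holstein-Friesian on grass by edgeR at an adjusted p below 0.05. Over all miRNAs 30.2% were called there, 15.4% as lower in Holstein-Friesian. miR-502b averaged 230 ± 99.8 CPM in Holstein-Friesian and 328 ± 108 CPM in Charolais (-0.50 ± 0.16, edgeR adjusted p = 0.0152), with 14 of 16 Holstein-Friesian libraries below the Charolais median. miR-500 averaged 30.5 ± 7.27 CPM in Holstein-Friesian and 40.6 ± 11.01 CPM in Charolais (-0.40 ± 0.12, edgeR adjusted p = 0.00868, 13 of 16 below). miR-362-5p averaged 28.3 ± 6.70 CPM in Holstein-Friesian and 35.3 ± 8.01 CPM in Charolais (-0.32 ± 0.11, edgeR adjusted p = 0.0166, 14 of 16 below). miR-502a gave -0.12 ± 0.19 (edgeR adjusted p = 0.696), which turned to 0.06 with library totals.

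These 3 calls depended on the scaling. With library totals the median of all miRNAs in this comparison moved to 0.20 and none of the 3 was called. miR-502b then gave -0.33, miR-500 -0.19 and miR-362-5p -0.11, which relative to that median are -0.53, -0.39 and -0.32. Leaving out any 1 of the 64 libraries, or taking any of them as TMM reference, kept the calls of miR-502b and miR-500. miR-362-5p was called in 46 of the 64 fits with a library left out and lost its call in the others, with edgeR adjusted p-values up to 0.0996. Fits without a concentrate library, which does not enter this comparison, were among those that lost it. Without low-RFI Charolais replicate 1 on concentrate miR-362-5p gave -0.25 (edgeR adjusted p = 0.0549). Without the high-RFI Holstein-Friesian library that stood apart, the differences were -0.42, -0.35 and -0.25 for miR-502b, miR-500 and miR-362-5p. All were still called (edgeR adjusted p = 0.0304, 0.0147 and 0.0469), and leaving out the concentrate library above gave the same -0.25 for miR-362-5p. With the animal as a fixed block, which pairs the libraries of the 5 steers sampled on both diets, miR-362-5p was no longer called (-0.27, edgeR adjusted p = 0.0576), while miR-502b (-0.47, adjusted p = 0.0375) and miR-500 (-0.38, adjusted p = 0.0202) were.

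On concentrate 1.57% of all miRNAs were called for breed and none of the 4 other cluster miRNAs was, with 0 of the 4 at an unadjusted p below 0.05. The members gave -0.32 ± 0.12 for miR-362-3p, -0.29 ± 0.16 for miR-660, -0.12 ± 0.08 for miR-532 and -0.03 ± 0.15 for miR-188. Averaged over the RFI classes, miR-362-3p was thus lower in Holstein-Friesian by a similar size on concentrate and on grass, with an interaction of 0.08 ± 0.17. The classes were unlike on concentrate. There Holstein-Friesian and Charolais averaged 3.94 ± 0.55 and 5.92 ± 0.96 CPM at low RFI, but 6.13 ± 1.63 and 6.48 ± 2.01 CPM at high RFI. On grass the averages were 4.84 ± 0.86 and 6.83 ± 1.23 CPM at low RFI, and 4.50 ± 1.29 and 5.58 ± 1.48 CPM at high RFI. For the other cluster miRNAs the interaction of breed and diet was 0.64 ± 0.23 for miR-502b, 0.51 ± 0.17 for miR-500, 0.33 ± 0.15 for miR-362-5p and 0.13 ± 0.27 for miR-502a. None was called by edgeR (adjusted p = 0.0908, 0.0725, 0.199 and 0.761), although 3 of the 4 had an unadjusted p below 0.05, and 3.46% of all miRNAs were called. With the animal as a random block in limma-voom miR-502b alone of the 4 was called for the interaction (0.72, limma adjusted p = 0.0454), and with the fixed block none was. Without the block, the calls for diet in 1 breed and not in the other are not shown to differ between the breeds.

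**Figure D3:**
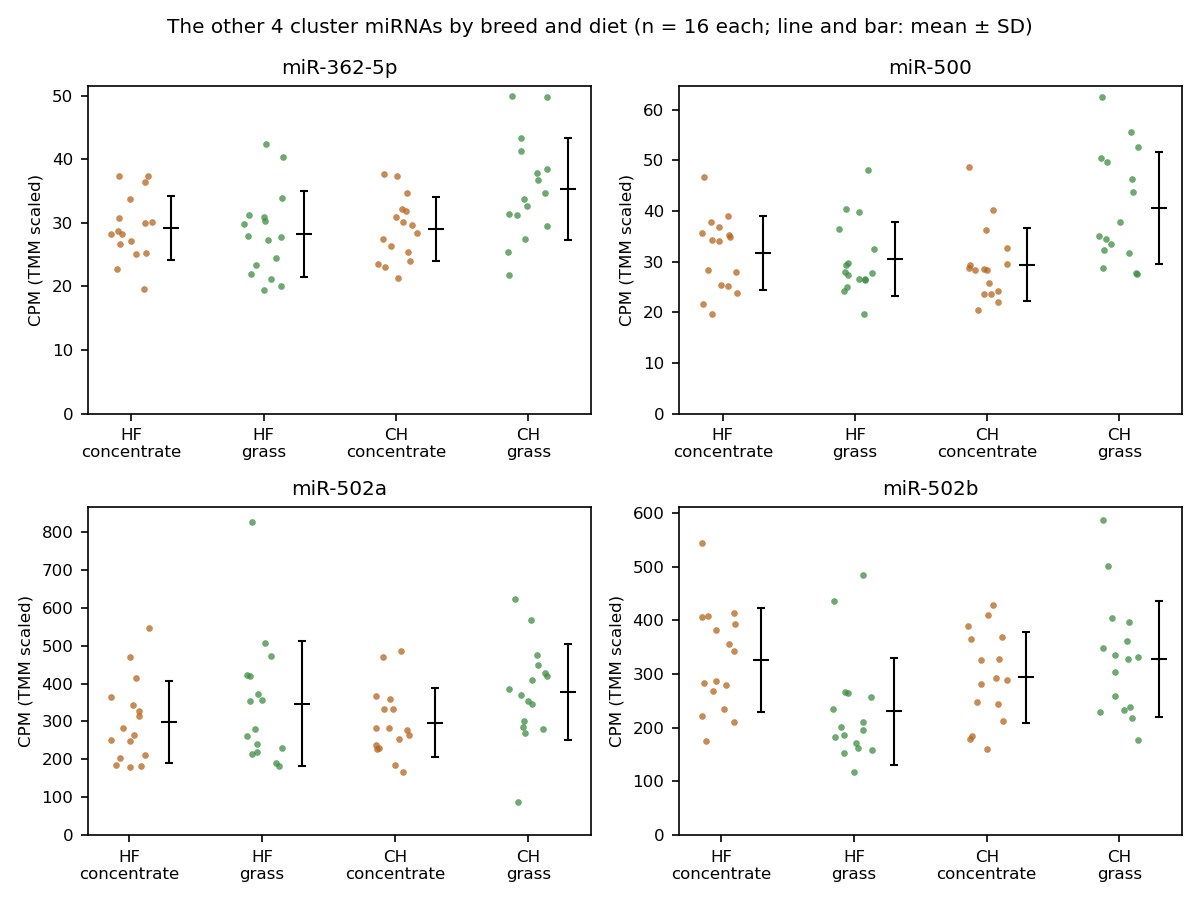
CPM (vertical axes, TMM scaled) of miR-362-5p, miR-500, miR-502a and miR-502b in each library of Holstein-Friesian (HF) and Charolais (CH) steers on concentrate (brown) and grass (green); the line and bar give the mean ± SD of 16 libraries. miR-500 averages 40.6 CPM in Charolais on grass and between 29.4 and 31.7 CPM in the other 3 combinations.

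Residual feed intake was compared over all groups and within each combination of breed and diet. Over all groups the differences of the members, low minus high RFI, were 0.04 ± 0.06 for miR-532, 0.02 ± 0.10 for miR-188, 0.02 ± 0.11 for miR-660 and -0.10 ± 0.09 for miR-362-3p. The first 3 had no stable sign. Leaving out 1 library turned them to -0.00365 (without low-RFI Charolais replicate 5 on grass), -0.05 (without low-RFI Holstein-Friesian replicate 7 on grass) and -0.05 (without low-RFI Holstein-Friesian replicate 6 on grass), and library totals to -0.08, -0.12 and -0.10. No miRNA of the 318 was called by edgeR (0%), with 11 at an unadjusted p below 0.05, and DESeq2 and limma-voom called none either, with 12 and 9 at an unadjusted p below 0.05. Within each of the 4 combinations 0% were called as well, with 10 to 34 miRNAs at an unadjusted p below 0.05 by edgeR, and DESeq2 and limma-voom called none. Without the 5 repeated steers' concentrate libraries edgeR called 2 of 328 miRNAs, both lower in low-RFI, in Holstein-Friesian on concentrate, and none of the 4 other cluster miRNAs was among them.

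In Charolais on grass the 4 other cluster miRNAs had positive differences, from 0.18 to 0.41. The 4 members had differences from 0.26 to 0.48, but they were chosen partly for RFI differences in these libraries. Over all 318 miRNAs the median was -0.01, and 154 were positive. The cluster miRNAs were correlated across libraries, so their signs are not separate results. miR-660 averaged 1481 ± 493 CPM in low-RFI steers (lowest 1016, median 1351, highest 2583) and 1060 ± 231 CPM in high-RFI steers (lowest 791, median 1059, highest 1383), a difference of 0.48 ± 0.22 (SE, n = 8 each). miR-188 averaged 14.4 ± 3.57 CPM in low-RFI and 10.7 ± 2.66 CPM in high-RFI steers (0.42 ± 0.20). miR-532 averaged 258 ± 41.5 CPM in low-RFI and 214 ± 31.4 CPM in high-RFI steers (0.26 ± 0.11). The groups overlapped for each of them. None of miR-362-5p (0.24), miR-500 (0.36), miR-502a (0.18) and miR-502b (0.41) was called by edgeR (adjusted p = 0.860, 0.860, 0.922 and 0.860).

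In Holstein-Friesian on concentrate the member with the largest difference was miR-362-3p. It averaged 3.94 ± 0.55 CPM in low-RFI steers (lowest 3.02, median 3.998, highest 4.55) and 6.13 ± 1.63 CPM in high-RFI steers (lowest 3.67, median 6.72, highest 8.52), a difference of -0.63 ± 0.18. All 8 low-RFI libraries lay below the high-RFI median, though the ranges overlapped. The counts behind these values ran from 12 to 53 in low-RFI and from 20 to 106 in high-RFI libraries. The other members gave -0.23 ± 0.21 for miR-188, -0.14 ± 0.11 for miR-532 and -0.04 ± 0.22 for miR-660. Without high-RFI Holstein-Friesian replicate 5 on concentrate, miR-188 gave -0.09 and miR-660 turned to 0.12, and without low-RFI replicate 3 miR-532 gave -0.03. miR-362-3p stayed between -0.66 and -0.52 with any 1 library left out. In Charolais on concentrate the 4 members lay between -0.22 and -0.04, and in Holstein-Friesian on grass between -0.21 and 0.09.

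Small differences depended on which libraries entered. In Holstein-Friesian on grass, miR-660 ran from -0.52 (without low-RFI replicate 6) to -0.00681 with 1 library left out. There miR-532 and miR-188 turned to -0.10 and -0.14 without low-RFI replicate 7, and miR-362-3p to -0.10 without high-RFI replicate 3. In Charolais on concentrate no member turned sign, although miR-188 gave -0.40 and miR-532 -0.11 without low-RFI replicate 8, miR-660 -0.31 without low-RFI replicate 1 and miR-362-3p -0.25 without high-RFI replicate 5.

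The library that stood apart, high-RFI Holstein-Friesian replicate 1 on grass, changed no direction of a member in the diet or breed comparisons over all groups. Without it the diet differences were -0.32 for miR-188, -0.36 for miR-660, -0.17 for miR-532 and 0.09 for miR-362-3p, and the breed differences -0.41, -0.19, -0.21 and -0.39 in the same order. In Holstein-Friesian alone the diet difference of miR-188 turned to 0.02 and that of miR-362-3p was 0.13, while miR-502b kept its call (0.45, edgeR adjusted p = 0.0239). On grass the breed difference was -0.75 for miR-188, -0.43 for miR-362-3p, -0.28 for miR-532 and -0.05 for miR-660. The interaction of miR-188 was 0.69. Among RFI differences, miR-188 gave 0.15 and miR-660 -0.29 in Holstein-Friesian on grass, and miR-660 turned to 0.02 in Holstein-Friesian on concentrate.

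Across libraries the levels of the cluster miRNAs were correlated, to different degrees. Pearson's r of log2 CPM, taken on deviations from the 8 group means over the 64 libraries, averaged 0.46 over the 6 pairs of members. It was highest for miR-532 with miR-188 (0.61), the first 2 genes of the cluster, and lowest for miR-188 with miR-362-3p (0.31). The 6 pairs of other cluster miRNAs averaged 0.67. miR-362-5p, miR-500 and miR-502b formed the tightest set, with r between 0.80 and 0.85. All 28 pairs averaged 0.44, against 0.03 over the 50403 pairs of tested miRNAs. The points share library depth, scaling factor and tissue make-up, so these values are a description and carry no p-value.

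The 2 arms of the miR-362 hairpin were among the least related pairs. miR-362-3p and miR-362-5p had r = 0.19, and r = 0.65 with library totals. The ratio of the 5p over the 3p arm had a median of 5.59 over all libraries. It was 5.88 in Holstein-Friesian on concentrate and 6.29 on grass, and 4.52 in Charolais on concentrate and 5.93 on grass. The counting error of the 3p arm is the larger one given above, and its part in the low r was not tested.

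**Figure D4:**
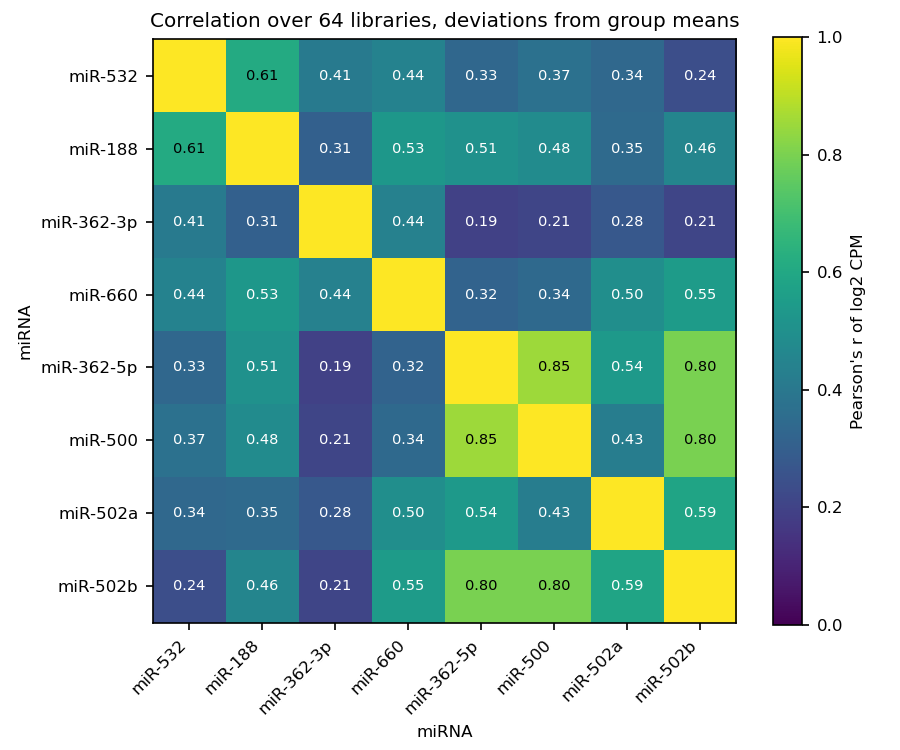
Pearson's r between the 8 cluster miRNAs (both axes), from log2 CPM as deviations from group means over 64 libraries. The block of miR-362-5p, miR-500 and miR-502b stands out with r between 0.80 and 0.85, while miR-362-3p has r = 0.19 with its partner arm.

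Outside the cluster, the 5 tested miRNAs most like the 4 members, by mean r over the 64 libraries, were miR-22-3p (0.49), let-7f (0.48), miR-133a (0.47), miR-193b (0.47) and miR-378c (0.47). These means lie above those of the 4 other cluster miRNAs with the members, which were between 0.34 and 0.36 and ranked 18 to 22 among the 314 miRNAs that are not members. miR-133a is one of the muscle-specific miRNAs, and it was among the most abundant, at 74317 CPM.

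Levels of other miRNAs moved with the cluster. Over the 64 libraries miR-451, a miRNA of red blood cells, had r between -0.45 and -0.18 with the members and between -0.58 and -0.47 with the other cluster miRNAs. The TMM factor had r of -0.58, -0.58 and -0.69 with miR-362-5p, miR-500 and miR-502b, and between -0.31 and 0.12 with the members. For each list of markers, the log2 deviations of its miRNAs from the group means were averaged with equal weight, and r was taken with that mean. The skeletal-muscle list had r of 0.10, 0.17, 0.43 and 0.53 with miR-532, miR-362-3p, miR-188 and miR-660. With the other cluster miRNAs its r lay between 0.33 and 0.59. The smooth-muscle and fibroblast list had r between -0.41 and -0.25 with the members and between -0.20 and 0.02 with the others. The leukocyte list had r between -0.56 and -0.18 with the members and between -0.68 and -0.50 with the others.

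The same lists differed between the groups. On concentrate 2 of 3 red-blood-cell miRNAs were called higher than on grass by edgeR (miR-451 1.30 ± 0.37, adjusted p = 0.00526, and miR-144 1.09 ± 0.37, adjusted p = 0.0183), as were 5 of 7 leukocyte miRNAs. Of all 318 miRNAs 57 were called higher on concentrate. The third red-blood-cell miRNA, miR-486, differed by 0.17 and was not called. The summed red-blood-cell list ran from 47973 to 242515 CPM on concentrate (median 111091) and from 49976 to 204717 CPM on grass (median 101186). This sum includes miR-486 and does not stand for miR-451 and miR-144 alone. The leukocyte list ran from 431 to 2610 CPM on concentrate and from 288 to 1376 CPM on grass. In Charolais, where miR-451 differed by 1.76 ± 0.53, a fit with the miR-451 level of each library as a covariate gave -0.53 ± 0.15 for miR-188 and -0.22 ± 0.08 for miR-532 but -0.02 ± 0.16 for miR-660. In that fit miR-500 (-0.20, adjusted p = 0.309) and miR-362-5p (-0.10, adjusted p = 0.697) were no longer called by edgeR in Charolais, while in Holstein-Friesian miR-502b kept its call at 0.63 ± 0.14 (adjusted p = 0.000179).

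Between the breeds on grass, miR-451 differed by 0.03 ± 0.51 and 1 of 3 red-blood-cell miRNAs was called (miR-486, also made by muscle, -0.58, adjusted p = 0.00153 by edgeR). There 4 of 5 miRNAs of smooth muscle and fibroblasts were called higher in Holstein-Friesian, against 47 of all 318 called higher and 49 lower. The sum of the 5 ran from 16223 to 116594 CPM in Holstein-Friesian and from 17874 to 40297 CPM in Charolais on grass. The skeletal-muscle list had 1 miRNA called higher and 1 lower (miR-206 0.81 and miR-133a -0.43, edgeR adjusted p = 0.00428 and 0.0173), with sums from 35571 to 124232 CPM in Holstein-Friesian and from 64973 to 153766 CPM in Charolais. The 3 breed calls on grass were kept with miR-451 as a covariate. The part of the smooth-muscle and skeletal-muscle lists in these differences was not tested.

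The 5 steers with a library on each diet, 1 Holstein-Friesian and 4 Charolais, give the diet difference within an animal. miR-532 had 199, 193, 169, 190 and 159 CPM on concentrate, against 291, 244, 240, 224 and 200.4 CPM on grass in the same steers in the same order. It was lower on concentrate in 5 of 5, with log2 differences from -0.55 to -0.24. miR-188 had 7.39, 10.2, 7.95, 4.70 and 7.21 CPM on concentrate, against 11.8, 8.63, 12.8, 16.3 and 12.1 CPM on grass, lower in 4 of 5. miR-660 was lower on concentrate in 3 of 5 (differences from -0.44 to 0.32) and miR-362-3p in 2 of 5 (from -0.85 to 0.83). These libraries are part of the groups above and are no independent sample, and the first steer's grass library is the one that stood apart. The third steer was classed high-RFI on grass and low-RFI on concentrate, so its difference also crosses RFI class.

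**Figure D5:**
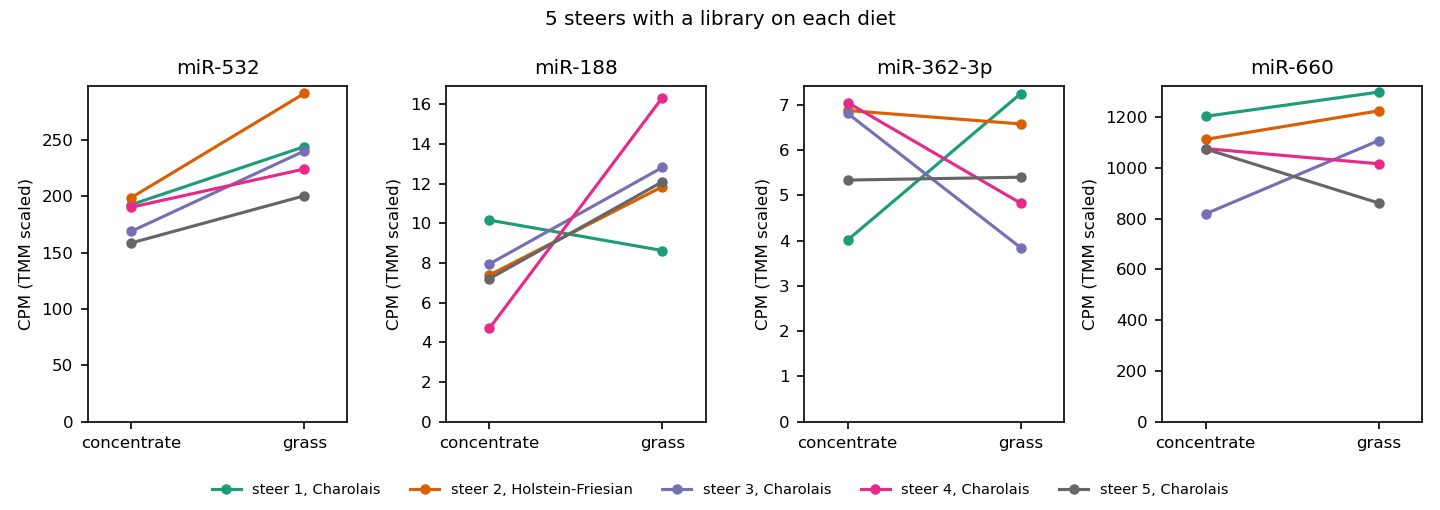
CPM (vertical axes, TMM scaled) of the 4 members on concentrate and on grass in the 5 steers with a library on each diet, joined by a line per steer. miR-532 is lower on concentrate in 5 of 5 steers and miR-188 in 4 of 5, while miR-362-3p and miR-660 go either way.

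miR-502a carries an uncertainty of counting. Its counts ended in 0.5 in 35 of 64 libraries, and it has 2 gene copies in CLCN5, and how the authors' counting treated reads that match both copies is not stated, so its level is uncertain. None of the other 7 cluster miRNAs had a fractional count.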

How the data were processed

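The authors deposited estimated counts per miRNA name, not normalized, for 64 libraries. The labels' protocols name Qiagen's RNeasy Plus Universal kit for RNA and Illumina's TruSeq stranded kit for libraries, and do not say how small RNA was selected. Build ARS-UCD 1.2, edgeR 3.5, R 3.4, cutadapt 2.6 and FastQC 0.11.8 appear in the submitters' processing notes with no role. Aligner and counter: not given in the sources used here.

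Counts were rounded, 1 name with empty cells was left out, and filterByExpr over the 8 groups kept 318 names. edgeR 4.0.16 (R 4.3.3; TMM, robust quasi-likelihood fit, 8 group means, 56 residual degrees of freedom) gave 12 contrasts, with calls at 0.05 after Benjamini-Hochberg adjustment over all 318, and was tested on simulated data. Replicates are separate steers. CPM use TMM factors; for correlations a prior count of 2 was added before taking log2 values. Alternatives used DESeq2 1.42.0 and limma 3.58.1. Each fit with a library left out repeated the filter and the TMM scaling, so its change is not that of the library alone. The animal numbers pair the libraries of 5 steers (correlations of their deviations 0.288, -0.111, 0.165, 0.398 and 0.599), and the animal was a block only in alternatives. The members and lists were chosen with earlier results of these data known. Named miRNAs are the 4 members, the other rows of the cluster, the 5 most alike, and the cell-type markers; a planned search for shared seeds was not made, since sequences are not used here.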

Additional observations from a re-analysis of the deposited data

Results flagged for a closer look

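Of the 64 sets of 8 libraries examined (8 miRNAs in 8 groups), 6 held a library far above the other 7. The cut used flags about 1 in 20 sets of independent, normally distributed values. The sets here share libraries and hold CPM that need not be normal, so the 6 cannot be set against that rate. All 6 were libraries of the grass phase. In low-RFI Charolais on grass, replicate 3 had 2583 CPM of miR-660, with the next library at 1737 CPM, and 569 CPM of miR-502a, with the next at 427 CPM. In high-RFI Holstein-Friesian on grass, replicate 4 had 828 CPM of miR-502a, with the next at 473 CPM, and 437 CPM of miR-502b, with the next at 265 CPM. In low-RFI Holstein-Friesian on grass, replicate 7 had 485 CPM of miR-502b, with the next at 266 CPM. In high-RFI Holstein-Friesian on grass, replicate 1, the library with the highest TMM factor, had 291 CPM of miR-532, with the next at 209.6 CPM. Without high-RFI Holstein-Friesian replicate 4 on grass, edgeR called miR-502b for diet over both breeds (0.28, adjusted p = 0.0269) and for the interaction (0.71, adjusted p = 0.0267), and likewise without low-RFI replicate 7 (0.28, adjusted p = 0.0259, and 0.72, adjusted p = 0.0215). What sets these libraries apart was not tested.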

How the results depend on the processing

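Of the 4 other cluster miRNAs the number called changed as follows, and the cause was not tested where none is named. For diet over both breeds it was 3 with library totals, where 118 of all 318 miRNAs were called lower on concentrate. It was 1 with a mean of at least 10 CPM, without the repeated steers' concentrate libraries, with miR-451 as covariate and with some TMM references. For breed on grass it was 0 with library totals, where the median of all miRNAs shifts. For diet in Charolais it was 0 with miR-451 as covariate, and 1 with DESeq2 size factors, no filter, a mean of at least 10 CPM, DESeq2, limma-voom, without the repeated steers' concentrate libraries and with most TMM references. With the animal as a fixed or random replicate block it was 1 in Charolais, and in the interaction it was 1 with the random replicate block (miR-502b 0.72, limma-voom adjusted p = 0.0454) and up to 2 with other TMM references. With a library left out it ran from 0 to 1 for diet and for breed, from 2 to 3 for breed on grass, was 1 in all fits for diet in Charolais, and ran from 0 to 2 for the interaction. The libraries behind the breed call (miR-362-5p) were high-RFI replicate 4 and low-RFI replicate 7 of Holstein-Friesian on grass. For breed on grass miR-362-5p was called in only 7 of the 11 alternatives that are neither a left-out library nor another TMM reference. The fixed replicate block was among those that lost it (-0.27, edgeR adjusted p = 0.0576). miR-532 moved to -0.52 for diet with library totals.

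Signs turned for the other cluster miRNAs in comparisons where they were not called. With library totals these were miR-502b for diet (-0.037), miR-502a for breed (0.0652) and for breed on grass (0.0606), and miR-362-5p (-0.274) and miR-500 (-0.303) for diet in Holstein-Friesian. With miR-451 as covariate they were miR-362-5p for diet (0.00718), miR-502a (0.0352) and miR-502b (0.2001) for diet in Charolais, and miR-502a for the interaction (-0.0848). With a mean of at least 10 CPM, miR-362-5p and miR-500 turned to -0.000957 and -0.00119 for diet in Holstein-Friesian. With other TMM references the values reached 0.00702 for miR-502a for breed, -0.00823 for miR-362-5p and -0.00563 for miR-500 for diet in Holstein-Friesian, and -0.0101 for miR-502a for the interaction. With a library left out, miR-502a ran from -0.13 to 0.00986 for breed, from -0.255 to 0.013 for breed on grass and from -0.0299 to 0.2505 for the interaction, and miR-500 from -0.0104 to 0.137 for diet in Holstein-Friesian. Members turned sign too where their differences were small. With library totals miR-362-3p gave -0.24 for diet, -0.19 in Charolais and -0.28 in Holstein-Friesian, miR-532, miR-188 and miR-362-3p gave -0.16, -0.19 and -0.15 for RFI in Holstein-Friesian on grass, miR-532 gave 0.08 for RFI in Charolais on concentrate and -0.02 for the interaction, miR-362-3p gave -0.09 for the interaction and miR-188 gave 0.00709 for breed on concentrate. With miR-451 as covariate miR-188 gave 0.02 for diet in Holstein-Friesian, and miR-532 and miR-660 gave 0.02 each for RFI in Charolais on concentrate. Depth limits miR-362-3p, which had 12 to 196 counts per library.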
